A study of Mus musculus with 4 samples.

Results

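The receptor genes described here encode the receptors for serotonin, dopamine, noradrenaline and adrenaline, acetylcholine (muscarinic type), histamine and adenosine. They were chosen by gene symbol from a list of 40 names, and all 40 were found among the 55487 genes of the deposited table. RNA was profiled in nuclei separated by fluorescence-activated sorting. They came from adult mice labelled wild type, from brain with the olfactory bulb removed. The samples were 2 libraries of excitatory neuron nuclei and 2 libraries of inhibitory neuron nuclei, all labelled as batch 1. The labels state neither the age in weeks, sex, strain and sorting markers nor the number of animals. Replicates may share an animal, and the p-values then reflect only technical spread among libraries.

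Most of these receptors are seven-transmembrane proteins that act through G proteins. Receptors coupled to Gs (or Golf in the striatum) raise cyclic AMP, those coupled to Gi or Go lower it and open potassium channels, and those coupled to Gq activate phospholipase C. The exceptions are Htr3a and Htr3b, subunits of an ion channel opened by serotonin. In the brain these receptors read out diffuse signals from small brainstem, midbrain, hypothalamic and basal forebrain nuclei, and adenosine as a local signal of activity, and their subtypes differ sharply between neuron types.

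Levels are TPM, transcript abundances that the authors scaled for transcript length and to the same total in each library, so that levels can be compared between genes. The number of reads behind a value cannot be read from TPM and is unknown. The columns summed to between 999833 and 999891 TPM, and between 32207 and 32836 genes were listed above 0. The sorted identities showed in their marker genes. The 8 excitatory identity genes summed to between 866 and 950.2 TPM in excitatory libraries and between 284 and 303 TPM in inhibitory libraries, and the 8 inhibitory identity genes to between 64.1 and 78.9 TPM in excitatory libraries and between 425 and 437 TPM in inhibitory libraries. None of the excitatory identity genes was at 0 in any library, and of the inhibitory ones only Dlx5 was, in excitatory replicate 2. By these sums neither population was free of the other's markers. Slc17a6, the vesicular glutamate transporter of subcortical neurons, stood at 22.4 and 20.3 TPM in excitatory libraries and at 88.0 and 78.4 TPM in inhibitory libraries, against the direction of its list.

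Of the 40 receptor genes, 36 reached at least 1 TPM in at least 2 libraries and were tested. Among them 5 were higher in excitatory nuclei (Adra1d, Chrm1, Adrb1, Chrm3 and Adora1) and 11 were higher in inhibitory nuclei (Drd2, Adora2a, Adra2b, Htr2c, Drd1, Htr3a, Drd3, Htr1b, Htr7, Adra1a and Hrh3). The other 20 did not pass the test. Genes were called at an adjusted p under 0.05 (limma, Benjamini-Hochberg over 26055 genes). The called share was 13.9% toward excitatory, against 5.43% of all genes tested, and 30.6% toward inhibitory, against 6.62%. In either direction it was 44.4%, against 12.0%. The median log2 fold change (excitatory over inhibitory, computed from log2(TPM + 1)) was -0.04 over the tested receptor genes and -0.07 over all tested genes. The receptor genes divided into 16 with a positive and 20 with a negative value. In both excitatory libraries Adra2b, Drd3 and Htr3a lay below 1 TPM, and they entered the test only through the inhibitory ones, so their calls partly follow from the filter. The groups did not overlap for 30 of the 36 genes (83.3%), against 56.2% of all genes tested. The list was chosen with earlier results of these data known, so this share and the called shares describe it and are no independent support. For a single value, the smallest p of an exact two-sided permutation test in this design is 0.333.

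The calls depend on having all 4 libraries and on the filter. With any 1 library left out, 0 of 26055 genes were called by limma, receptor genes included, while between 2053 and 2652 genes had an unadjusted p under 0.05 toward excitatory nuclei and between 2735 and 3759 toward inhibitory nuclei. In those fits the 16 called receptor genes, each in the same direction as with all libraries, had adjusted p between 0.0545 and 0.177. Without the filter on low values, 55487 genes were tested and 0 of the 16 kept their call (adjusted p between 0.0734 and 0.264), while 47 genes were called toward excitatory and 93 toward inhibitory nuclei. Sorted nuclei are bulk samples, so a lower value can mean fewer cells of a type or less RNA per cell, and these cannot be told apart.

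**Figure D1:**
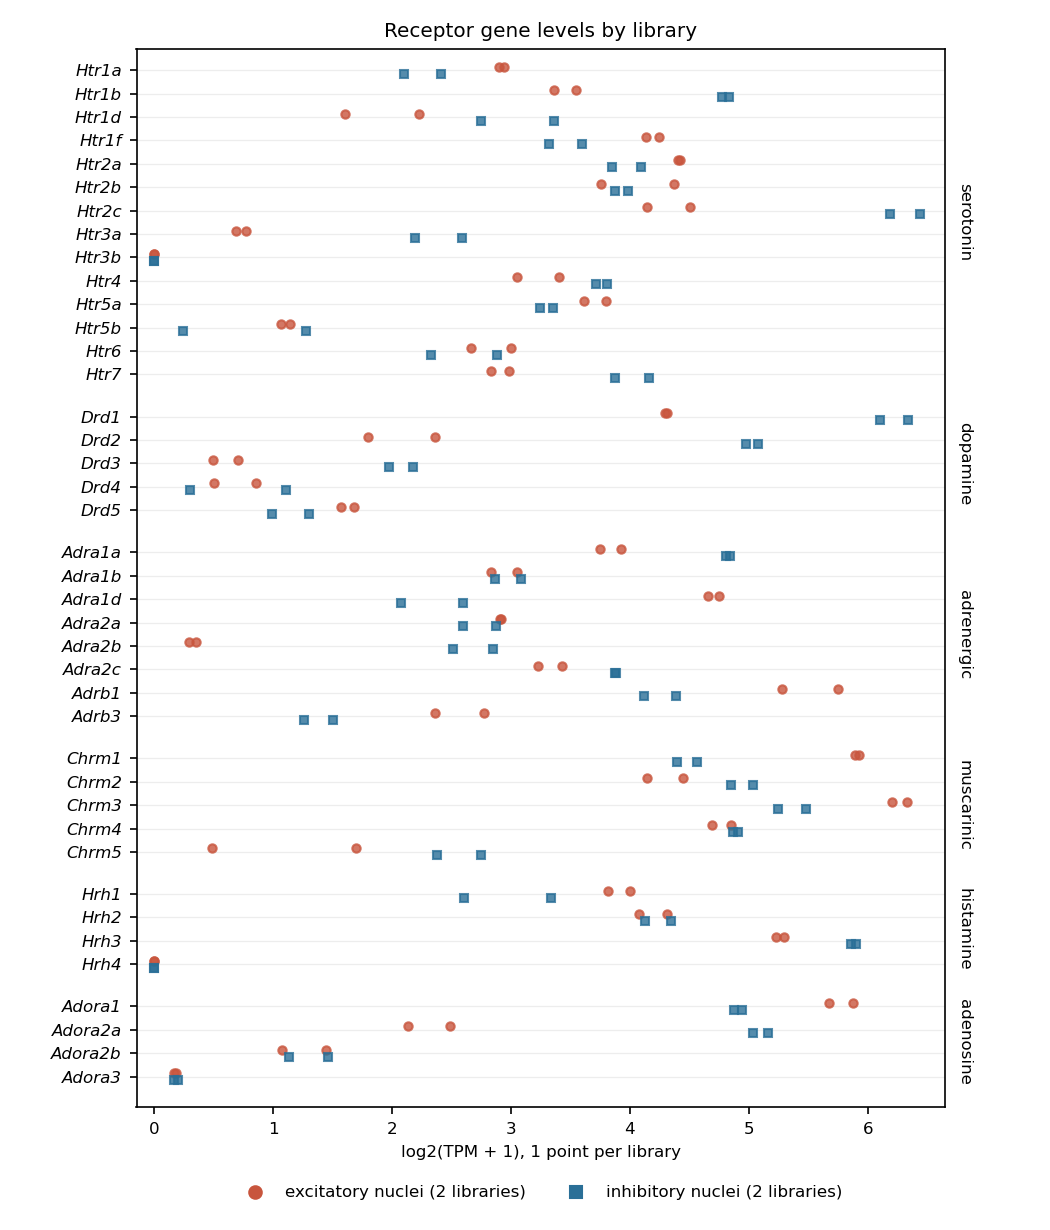
Level of each of the 40 receptor genes in each library, as log2(TPM + 1), by ligand family. Circles are excitatory libraries and squares inhibitory libraries. Drd1 and Htr2c reach the highest inhibitory levels and Chrm3 and Chrm1 the highest excitatory levels, and Htr3b and Hrh4 are listed at 0 in every library.

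The order of levels differed between the populations. In excitatory nuclei the muscarinic receptor gene Chrm3 was the most abundant of the 40, at 76.1 ± 4.89 TPM, followed by Chrm1 at 59.1 ± 1.12 TPM, Adora1 at 53.9 ± 5.59 TPM and Adrb1 at 45.3 ± 10.6 TPM (SD, n = 2 libraries here and below). Chrm3 was separated from Chrm1, and Chrm1 from Adora1, while Adora1 overlapped with Adrb1, and Adrb1 with Hrh3. In inhibitory nuclei the serotonin receptor gene Htr2c led at 78.9 ± 9.70 TPM, followed by Drd1 at 74.0 ± 8.68 TPM, Hrh3 at 57.8 ± 1.21 TPM and Chrm3 at 40.3 ± 4.86 TPM. Htr2c and Drd1 overlapped there, and Drd1, Hrh3 and Chrm3 were separated from each other. Htr2c and Drd1 ranked 9 and 10 in excitatory nuclei, within a run of 10 genes from Htr2a to Htr5a in which each overlapped with the next. The summed level of all 40 genes was 568 and 579 TPM in excitatory libraries, against 674 and 664 TPM in inhibitory libraries.

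**Figure D2:**
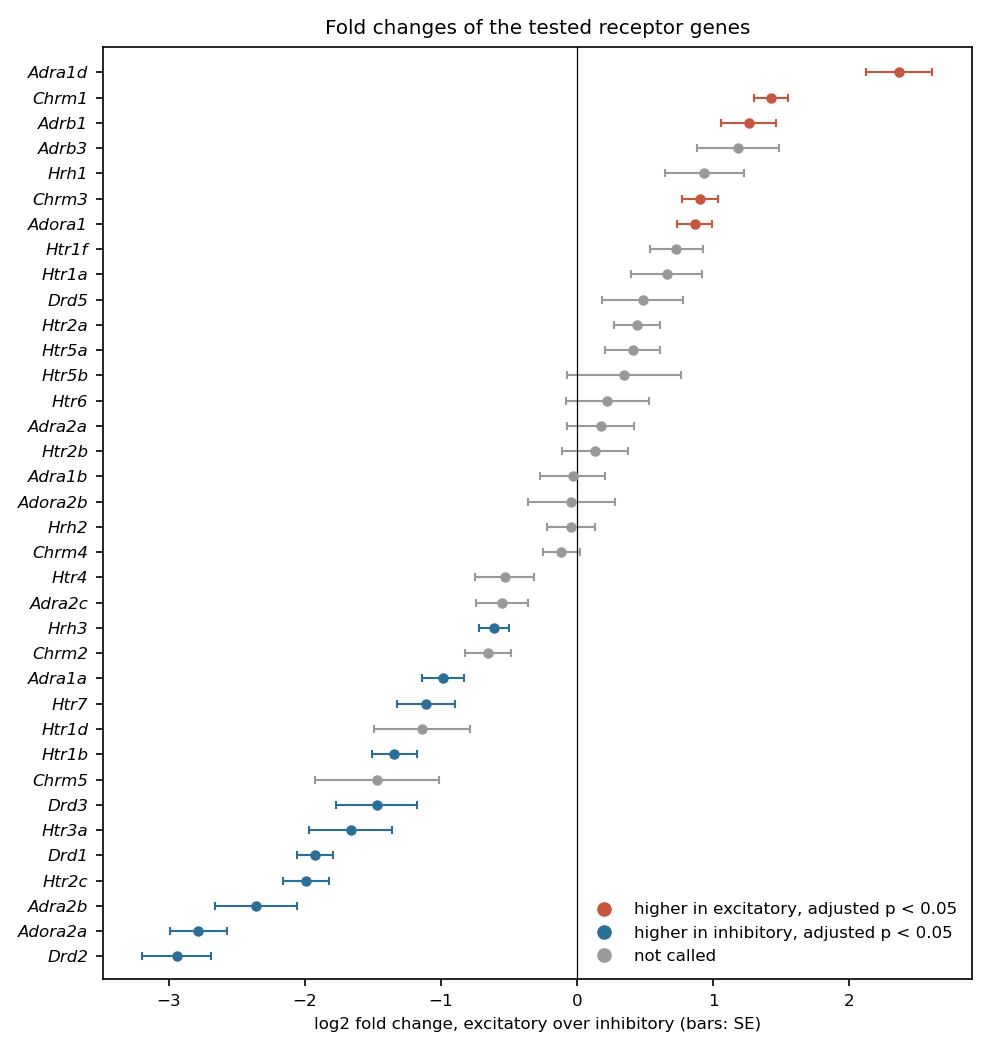
Log2 fold change, excitatory over inhibitory, of the 36 tested receptor genes, with standard errors. Adra1d stands highest at 2.37 and Drd2 lowest at -2.94 with a pseudocount of 1, where with 0.1 Adra2b is lowest at -3.98, and the genes that passed the test are coloured.

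Of the 5 dopamine receptor genes 4 were tested (5.43% of all tested genes were called toward excitatory and 6.62% toward inhibitory nuclei). Drd1, Drd2 and Drd3 were higher in inhibitory nuclei. By limma 0 were higher in excitatory nuclei, also at an unadjusted p under 0.05, with a family sum of 26.1 and 24.3 TPM in excitatory libraries against 116 and 105 TPM in inhibitory libraries. Drd1, the Gs/olf-coupled receptor of direct-pathway striatal neurons (chromosome 13, 54051183 to 54055705, minus strand, mm10), stood at 18.6 and 18.8 TPM in excitatory libraries, against 80.2 and 67.9 TPM in inhibitory libraries. Both inhibitory libraries lay far above both excitatory ones, 3.96-fold on average (log2 fold change -1.92 ± 0.13, adjusted p = 0.00207). Drd2, the Gi-coupled receptor of indirect-pathway striatal neurons and of dopamine neurons themselves (chromosome 9, 49340627 to 49408177, plus strand), stood at 4.15 and 2.47 TPM in excitatory libraries, against 30.4 and 32.7 TPM in inhibitory libraries. Its mean TPM was 9.54-fold higher in inhibitory nuclei (log2 fold change -2.94 ± 0.25, adjusted p = 0.00307). Drd3, a Gi-coupled receptor concentrated in the ventral striatum, stood at 0.409 and 0.628 TPM in excitatory libraries and 2.92 and 3.52 TPM in inhibitory libraries (-1.47 ± 0.30, adjusted p = 0.0303).

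The remaining dopamine receptor genes were low. Drd5, the other Gs-coupled member, stood at 2.2 and 1.98 TPM in excitatory libraries and 1.46 and 0.988 TPM in inhibitory libraries, and its excitatory values were the higher ones without passing the test (adjusted p = 0.362). It took 8.42% and 8.13% of the family's summed TPM in excitatory libraries, against 1.26% and 0.937% in inhibitory libraries. It shares 1531 exonic bases with the antisense gene Gm26560, which did not exceed 0.289 TPM. Drd4 was between 0.228 and 1.15 TPM and was not tested. The level of Drd1 was 4.48 and 7.60 times that of Drd2 in excitatory libraries and 2.64 and 2.07 times that of Drd2 in inhibitory libraries.

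Adenosine receptor genes split by subtype. Adora1, the Gi-coupled receptor that damps transmitter release (chromosome 1, 134199223 to 134235431, minus strand), stood at 57.8 and 49.9 TPM in excitatory libraries, against 28.4 and 29.7 TPM in inhibitory libraries, 1.85-fold higher in excitatory nuclei (0.87 ± 0.13, adjusted p = 0.0124). Adora2a, the Gs/olf-coupled receptor that indirect-pathway striatal neurons carry together with Drd2 (chromosome 10, 75316877 to 75334784, plus strand), stood at 4.61 and 3.40 TPM in excitatory libraries, against 34.9 and 31.7 TPM in inhibitory libraries, 8.31-fold higher in inhibitory nuclei (-2.79 ± 0.21, adjusted p = 0.00235). Adora1 shares 1162 exonic bases with Mybph on the opposite strand, which did not exceed 3.84 TPM. Adora1 made up 90.0% and 91.5% of adenosine receptor TPM in excitatory libraries, against 44.0% and 46.9% in inhibitory libraries, where Adora2a took 54.0% and 50.1%. The family sum was 64.3 and 54.6 TPM in excitatory libraries and 64.6 and 63.4 TPM in inhibitory libraries.

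Adora2b, a low-affinity Gs-coupled receptor, stood at 1.72 and 1.10 TPM in excitatory libraries and 1.20 and 1.76 TPM in inhibitory libraries, and the groups overlapped. Adora3, a Gi-coupled receptor found in mouse microglia, was between 0.118 and 0.149 TPM in the 4 libraries and was not tested. Its exons share 779 bases with those of Tmigd3 on the same strand, which makes it uncertain.

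The striatal markers moved the same way as Drd1, Drd2, Drd3 and Adora2a. Chrm4, a receptor gene also abundant in direct-pathway striatal neurons, was not called (limma, log2 fold change -0.12, adjusted p = 0.646). All 10 striatal projection neuron genes on a list that excludes the receptors were higher in inhibitory nuclei, against 6.62% of all tested genes. That list was chosen with earlier results of these data known. Its median log2 fold change was -2.11, and its sum was 372 and 378 TPM in excitatory libraries against 1450.4 and 1476 TPM in inhibitory libraries. None of the 10 was at 0 in any library. The part of striatal neurons in the values of the receptor genes named here was not tested.

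**Figure D3:**
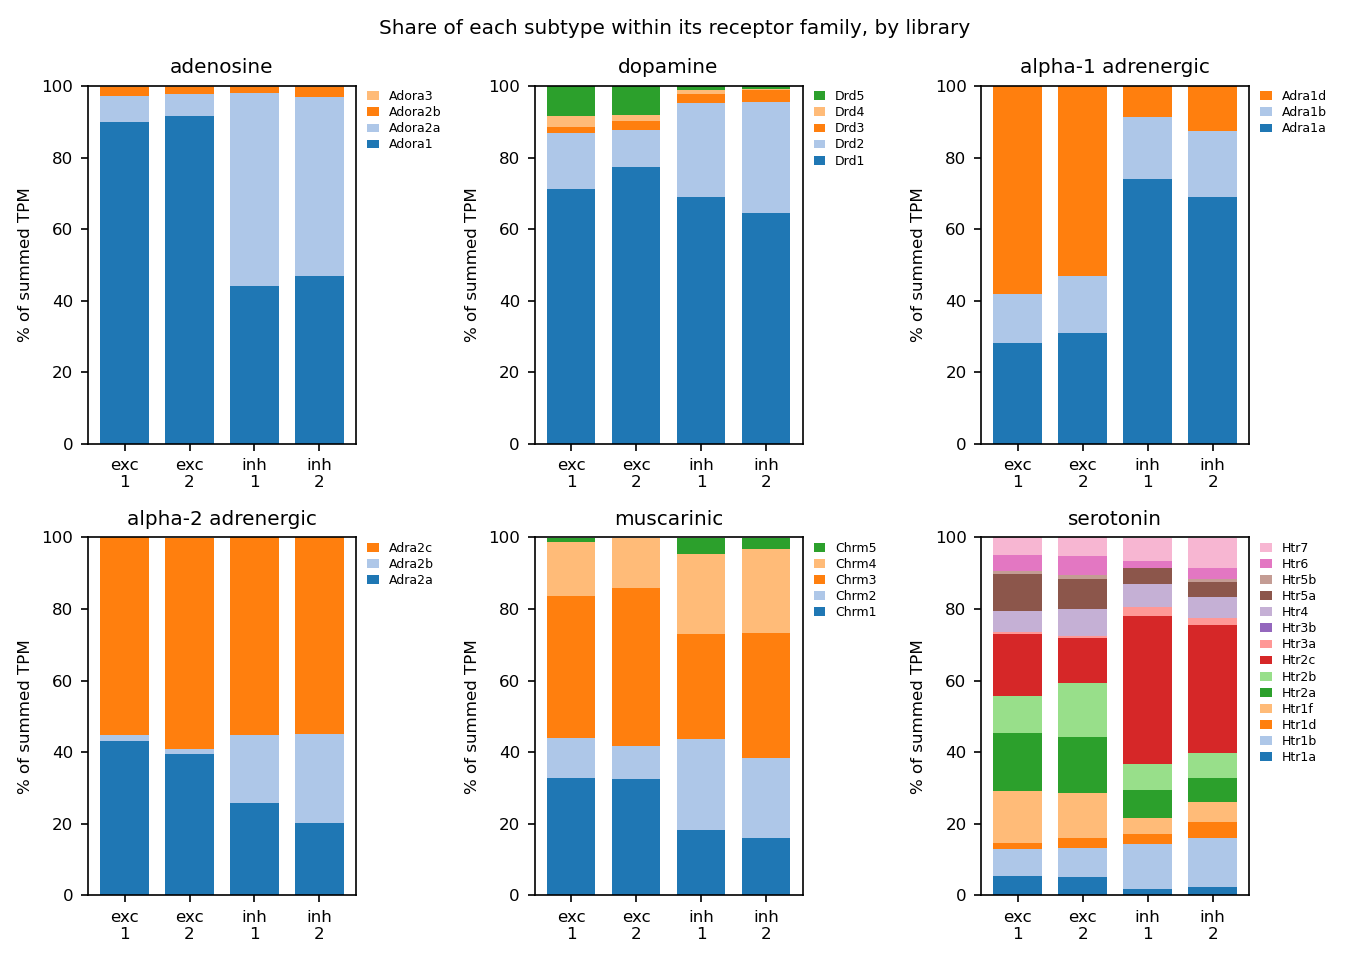
Share of each subtype in the summed TPM of its receptor family, in percent, for the 2 excitatory libraries (left) and the 2 inhibitory libraries (right) of each panel. Adora1 holds 90.0% and 91.5% of adenosine receptor TPM in excitatory libraries and Adra1d more than 50% of alpha-1 TPM there, while Adora2a, Adra1a and Htr2c hold larger shares in inhibitory libraries.

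Among adrenergic receptor genes 8 were tested. Of these, 2 were higher in excitatory nuclei, 2 were higher in inhibitory nuclei and 4 did not pass the test. Over all tested genes, 5.43% were called toward excitatory and 6.62% toward inhibitory nuclei. The alpha-1 receptors, which couple to Gq, divided between the populations. Adra1d (chromosome 2, 131545850 to 131562283, minus strand) stood at 25.9 and 24.2 TPM in excitatory libraries, against 3.21 and 5.04 TPM in inhibitory libraries. Its mean TPM was 6.08-fold higher in excitatory nuclei (log2 fold change 2.37 ± 0.24, adjusted p = 0.00460). Adra1a (chromosome 14, 66635251 to 66771168, plus strand) stood at 12.5 and 14.2 TPM in excitatory libraries, against 27.0 and 27.6 TPM in inhibitory libraries (-0.99 ± 0.16, adjusted p = 0.0145). The level of Adra1d was 2.08 and 1.71 times that of Adra1a in excitatory libraries and 0.119 and 0.183 times that of Adra1a in inhibitory libraries. Adra1b stood at 6.10 and 7.28 TPM in excitatory libraries and 6.27 and 7.46 TPM in inhibitory libraries, with overlapping groups. Adra1d shares 147 exonic bases with the antisense gene Gm14285, which stood at 2.89 and 5.50 TPM in excitatory libraries and 1.26 and 1.46 TPM in inhibitory libraries. In all, 10 of the 40 genes share exonic bases with a gene on the opposite strand. The library kit kept strand, but the sources used here do not say whether the counting used it.

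Of the alpha-2 receptor genes, whose Gi-coupled products restrain noradrenaline release, only Adra2b passed the test. Adra2b, known for its expression in the thalamus (chromosome 2, 127363208 to 127367221, plus strand), stood at 0.276 and 0.226 TPM in excitatory libraries, against 4.71 and 6.21 TPM in inhibitory libraries (-2.36 ± 0.30, adjusted p = 0.00743). In the same libraries 4 of 5 tested thalamic markers were higher in inhibitory nuclei, against 6.62% of all tested genes. The 6 listed summed to between 79.0 and 92.3 TPM in excitatory libraries and between 214 and 297 TPM in inhibitory libraries. Among the 6, Gbx2 was at 0 in 1 excitatory library, and the part of thalamic neurons in the Adra2b value was not tested. Adra2b held 1.82% and 1.37% of alpha-2 TPM in excitatory libraries, against 19.1% and 24.9% in inhibitory libraries. Adra2c stood at 8.35 and 9.75 TPM in excitatory libraries and 13.7 and 13.7 TPM in inhibitory libraries, without overlap but not called (adjusted p = 0.129). Adra2a, the main presynaptic alpha-2 receptor, stood at 6.53 and 6.50 TPM in excitatory libraries and 6.35 and 5.03 TPM in inhibitory libraries (adjusted p = 0.710).

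Of the beta receptor genes, which encode Gs-coupled receptors, Adrb1 was called. Adrb1, the main beta receptor of cortical neurons (chromosome 19, 56722199 to 56733113, plus strand), stood at 37.8 and 52.8 TPM in excitatory libraries, against 16.3 and 19.9 TPM in inhibitory libraries (1.26 ± 0.20, adjusted p = 0.0151). Its excitatory libraries stood apart from each other, yet both lay above both inhibitory ones. Adrb3, best known from fat tissue, stood at 4.14 and 5.82 TPM in excitatory libraries and 1.83 and 1.39 TPM in inhibitory libraries, without overlap and just outside the threshold (adjusted p = 0.0581). It shares 839 exonic bases with the antisense gene Gm45470, which stood at 3.51 and 3.90 TPM in excitatory libraries and 1.50 and 2.75 TPM in inhibitory libraries, so its values are uncertain. Adrb3 passed the test with median ratio scaling, quantile normalization, protein-coding genes alone or no trend in the variance prior.

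Muscarinic receptors carry the slow actions of acetylcholine. Of 5 tested, 2 were higher in excitatory nuclei, against 5.43% of all tested genes, and both encode Gq-coupled receptors. Toward inhibitory nuclei 0 were called by limma, against 6.62% of all tested genes, though Chrm2 and Chrm5 had an unadjusted p under 0.05 there. Chrm1, the principal muscarinic receptor of cortical and hippocampal pyramidal cells (chromosome 19, 8663789 to 8683587, plus strand), stood at 59.9 and 58.3 TPM in excitatory libraries, against 22.7 and 20.1 TPM in inhibitory libraries, 2.76-fold higher in excitatory nuclei (1.43 ± 0.13, adjusted p = 0.00319). Chrm3 (chromosome 13, 9875486 to 10360847, minus strand) stood at 72.6 and 79.5 TPM in excitatory libraries, against 36.8 and 43.7 TPM in inhibitory libraries (0.90 ± 0.13, adjusted p = 0.0110). The third Gq-coupled member, Chrm5, known from dopamine neurons of the midbrain, had the opposite sign at 2.25 and 0.401 TPM in excitatory libraries and 5.71 and 4.19 TPM in inhibitory libraries, and the wide gap between its excitatory libraries went with a large error (-1.47 ± 0.46, adjusted p = 0.0959).

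The Gi-coupled muscarinic genes did not pass the test. Chrm2, the presynaptic autoreceptor of cholinergic neurons, stood at 20.7 and 16.6 TPM in excitatory libraries and 31.8 and 27.9 TPM in inhibitory libraries, without overlap (adjusted p = 0.0599). It passed with a filter of at least 5 TPM and with protein-coding genes alone. It shares 142 exonic bases with the antisense gene 9330158H04Rik, which was itself higher in inhibitory nuclei. Chrm4, abundant in direct-pathway striatal neurons, stood at 27.9 and 24.9 TPM in excitatory libraries and 28.1 and 29.1 TPM in inhibitory libraries (adjusted p = 0.646). In share of the family, Chrm1 took 32.7% and 32.4% in excitatory libraries against 18.1% and 16.1% in inhibitory libraries, and Chrm2 took 11.3% and 9.26% in excitatory libraries against 25.4% and 22.3% in inhibitory libraries.

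Among serotonin receptor genes, 13 of 14 were tested, and 4 were higher in inhibitory nuclei, against 6.62% of all tested genes. By limma 0 were higher in excitatory nuclei, against 5.43%, although Htr1a, Htr1f and Htr2a had an unadjusted p under 0.05 in that direction. Htr2c encodes a Gq-coupled receptor whose RNA is edited and which limits feeding. Htr2c (chromosome X, 146962513 to 147197277, plus strand) stood at 21.6 and 16.7 TPM in excitatory libraries, against 85.8 and 72.1 TPM in inhibitory libraries, 4.12-fold higher in inhibitory nuclei (-1.99 ± 0.17, adjusted p = 0.00305). It took 17.5% and 12.7% of serotonin receptor TPM in excitatory libraries and 41.6% and 36.0% in inhibitory libraries. Htr2c is also very abundant in choroid plexus. Of 5 tested choroid plexus markers, 2 (Clic6 and Otx2) were higher in inhibitory nuclei, against 6.62% of all tested genes. Both passed the filter only through inhibitory libraries, with excitatory values under 1 TPM. Kl stood the other way at 3.49 and 2.65 TPM in excitatory libraries and 2.17 and 2.01 TPM in inhibitory libraries. It was not called. Ttr, the most abundant product of that tissue, stood at 14.0 and 8.77 TPM in excitatory libraries and at 17.8 and 12.2 TPM in inhibitory libraries and was not called. The 6 listed markers summed to between 12.4 and 20.2 TPM in excitatory libraries and between 27.0 and 33.7 TPM in inhibitory libraries, with Folr1 and Kcne2 at 0 in an excitatory library, and their part in the Htr2c value was not tested.

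The Gi-coupled Htr1b, a receptor on axon terminals that limits transmitter release (chromosome 9, 81628291 to 81633828, minus strand), stood at 9.28 and 10.7 TPM in excitatory libraries, against 26.3 and 27.4 TPM in inhibitory libraries (-1.34 ± 0.17, adjusted p = 0.00701). It shares 852 exonic bases with the antisense gene D430036J16Rik, which stood at 5.29 and 7.27 TPM in excitatory libraries and 17.5 and 12.3 TPM in inhibitory libraries, so the split of reads between them is uncertain. The Gs-coupled Htr7, a receptor of thalamus, hypothalamus and hippocampus (chromosome 19, 35958734 to 36057507, minus strand), stood at 6.11 and 6.89 TPM in excitatory libraries, against 13.6 and 16.9 TPM in inhibitory libraries (-1.11 ± 0.21, adjusted p = 0.0269). Htr3a, the channel subunit that marks a class of cortical interneurons from the caudal ganglionic eminence (chromosome 9, 48899213 to 48911099, minus strand), stood at 0.608 and 0.703 TPM in excitatory libraries, against 5.01 and 3.58 TPM in inhibitory libraries (-1.66 ± 0.30, adjusted p = 0.0230). Of 6 markers listed for that interneuron class, 4 were higher in inhibitory nuclei, against 6.62% of all tested genes. Cck, which pyramidal neurons also express, was higher in excitatory nuclei. The 6 summed to between 484 and 519 TPM in excitatory libraries and between 521 and 552 TPM in inhibitory libraries with none at 0, and their part in the Htr3a value was not tested. The partner subunit gene Htr3b was listed at 0 in all 4 libraries.

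The other serotonin receptor genes did not pass the test. Several had higher values in both excitatory libraries. Htr1f, a Gi-coupled receptor targeted by migraine drugs, stood at 18.0 and 16.5 TPM in excitatory libraries and 8.99 and 11.1 TPM in inhibitory libraries (adjusted p = 0.0638), and passed with median ratio scaling, quantile normalization or protein-coding genes alone. Htr2a, the cortical receptor through which serotonergic psychedelics act, stood at 20.2 and 20.4 TPM in excitatory libraries and 16.1 and 13.4 TPM in inhibitory libraries (adjusted p = 0.156). Against the closely related Htr2c, its level was 0.934 and 1.23 times as high in excitatory libraries and 0.188 and 0.186 times as high in inhibitory libraries. Htr1a, the somatodendritic autoreceptor that hippocampal pyramidal cells also carry, stood at 6.66 and 6.46 TPM in excitatory libraries and 3.29 and 4.33 TPM in inhibitory libraries (adjusted p = 0.166). Htr5a, a Gi-coupled receptor, stood at 12.9 and 11.2 TPM in excitatory libraries and 9.22 and 8.46 TPM in inhibitory libraries (adjusted p = 0.253).

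Values of Htr1d and Htr4 were higher in both inhibitory libraries without passing the test. Htr1d, a Gi-coupled relative of Htr1b, stood at 2.04 and 3.68 TPM in excitatory libraries and 5.72 and 9.30 TPM in inhibitory libraries (adjusted p = 0.0958), and passed with protein-coding genes alone. Htr4, a Gs-coupled receptor, stood at 7.29 and 9.61 TPM in excitatory libraries and 13.0 and 12.1 TPM in inhibitory libraries (adjusted p = 0.181). The groups overlapped for Htr2b, Htr5b and Htr6. Htr2b, a receptor best known from heart valves, stood at 12.5 and 19.7 TPM in excitatory libraries and 14.8 and 13.7 TPM in inhibitory libraries, values that are uncertain because it shares 252 exonic bases with Psmd1, a proteasome subunit gene on the opposite strand at between 62.0 and 76.9 TPM. Htr6, a Gs-coupled receptor, stood at 5.32 and 6.98 TPM in excitatory libraries and 4.02 and 6.37 TPM in inhibitory libraries. Htr5b, whose human counterpart is a pseudogene, did not exceed 1.42 TPM.

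Histamine receptor genes gave 1 call, toward inhibitory nuclei, among 3 tested, where 6.62% of all tested genes were called that way. A count this small cannot be weighed against that share. Hrh3, the Gi-coupled autoreceptor of histamine neurons that also sits on the terminals of many other neurons (chromosome 2, 180099465 to 180104488, minus strand), stood at 38.4 and 36.6 TPM in excitatory libraries, against 57.0 and 58.7 TPM in inhibitory libraries. The libraries of each group were close together and the groups clearly apart, yet the difference was the smallest of the 16 called (1.54-fold, -0.61 ± 0.11, adjusted p = 0.0222), and it was lost without a trend in the variance prior (adjusted p = 0.0785, within a range of 0.0100 to 0.0851 over the 9 alternatives with all 4 libraries). Hrh3 shares 349 exonic bases with the antisense gene Gm17180, at 1.56 and 3.01 TPM in excitatory libraries and 5.27 and 4.80 TPM in inhibitory libraries. Hrh1, the Gq-coupled receptor blocked by sedating antihistamines, stood at 15.0 and 13.1 TPM in excitatory libraries and 9.12 and 5.09 TPM in inhibitory libraries (adjusted p = 0.0966). Hrh2, a Gs-coupled receptor, stood at 15.8 and 18.8 TPM in excitatory libraries and 16.5 and 19.4 TPM in inhibitory libraries, with overlapping groups. Hrh4, a receptor of blood cells, was listed at 0 in all 4 libraries.

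The calls were also counted by G protein, against 5.43% of all tested genes called toward excitatory and 6.62% toward inhibitory nuclei. At these shares the single excitatory calls among Gi-coupled and among Gs-coupled genes are near the background. Of 10 tested Gq-coupled genes, 3 were higher in excitatory nuclei (Chrm1, Chrm3 and Adra1d) and 2 in inhibitory nuclei (Htr2c and Adra1a), with a median log2 fold change of 0.29. Of 15 tested Gi-coupled genes, 1 was higher in excitatory nuclei (Adora1) and 5 in inhibitory nuclei (Htr1b, Drd2, Drd3, Adra2b and Hrh3), with a median of -0.55. Among these 5, Drd3 and Adra2b entered the test only through inhibitory libraries, and Hrh3 lost its call without a trend in the variance prior. Of 10 tested Gs-coupled genes, 1 was higher in excitatory nuclei (Adrb1) and 3 in inhibitory nuclei (Htr7, Drd1 and Adora2a), with a median of -0.04. A gene structure with 1 coding exon, common in this receptor class, was present in 16 of the 40 genes. All 16 were tested, and 3 were higher in excitatory and 3 in inhibitory nuclei. Of the 24 with several coding exons, 20 were tested, and 2 were higher in excitatory and 8 in inhibitory nuclei. The inhibitory counts include Adra2b (1 coding exon) and Drd3 and Htr3a (several), which entered the test only through inhibitory libraries.

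Several receptor genes contain other annotated genes on the same strand, shown in the plot of host genes and inner features. Htr2c holds 8 small RNA genes in its introns, none of which shares exonic bases with it. All 8 had higher mean TPM in inhibitory libraries, and 5 passed the test, against 6.62% of all tested genes called that way. Among the uncalled ones, Mir1298 stood at 0 and 4.01 TPM in excitatory libraries and 9.18 and 4.32 TPM in inhibitory libraries. Mir448 stood at 1.41 and 0 TPM in excitatory libraries and 5.13 and 0 TPM in inhibitory libraries, so its direction is uncertain. Mir1264 stood at 8.75 and 11.6 TPM in excitatory libraries and 55.0 and 35.7 TPM in inhibitory libraries. Mir1912 stood at 4.96 and 3.59 TPM in excitatory libraries and 32.4 and 24.9 TPM in inhibitory libraries, and Mir764 at 7.83 and 6.43 TPM in excitatory libraries and 29.5 and 17.3 TPM in inhibitory libraries. The sources used here do not say whether reads of unspliced Htr2c were counted for these genes, and a microRNA gene's TPM in such a library is not a level of mature microRNA. Chrm3 holds 4 same-strand genes, of which Gm47411 and Gm47405 were higher in excitatory nuclei, as Chrm3 was. Mir490 lies in Chrm2 and was higher in inhibitory nuclei, at 12.5 and 10.3 TPM in excitatory libraries and 20.9 and 19.9 TPM in inhibitory libraries (log2 fold change -0.79 ± 0.18, adjusted p = 0.0410), while Chrm2 itself had -0.65 ± 0.17.

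The mature microRNAs encoded by the called Mir genes inside receptor genes are given below from RefSeq (GRCm38.p6), 5′ to 3′, to identify what lies within these loci, with the seed (bases 2 to 8) in capitals. The 6 sequences have 6 different seeds. The first 4 lie in Htr2c and the last 2 in Chrm2.
mmu-miR-1264-3p: cAAAUCUUauuugagcaccugu
mmu-miR-1912-3p: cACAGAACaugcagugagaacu
mmu-miR-764-3p: aGGAGGCCauaguggcaacugu
mmu-miR-764-5p: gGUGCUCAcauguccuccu
mmu-miR-490-3p: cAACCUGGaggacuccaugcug
mmu-miR-490-5p: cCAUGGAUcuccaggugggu

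**Figure D4:**
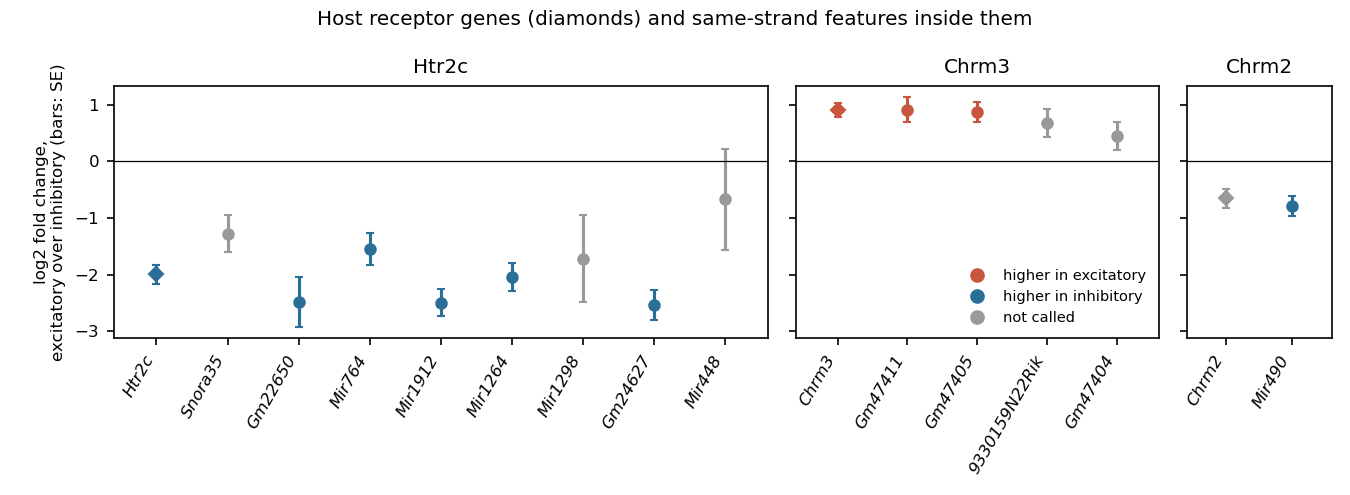
Log2 fold change, excitatory over inhibitory, with standard errors, of Htr2c, Chrm3 and Chrm2 (diamonds) and of the annotated genes on the same strand inside them (circles, in genomic order). The 8 features in Htr2c all lie below 0 and the 4 in Chrm3 all lie above 0, each on the side of its host. Mir1298 and Mir448, each at 0 in an excitatory library, were not called.

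The title of the study names EGR1, a zinc finger factor induced by neuronal activity, so the promoters of the receptor genes were searched for its core letters GCGNGGGCG on both strands. RefSeq promoters (GRCm38.p6), which run from 250 bases before to 50 bases after the start, were held for 31 of the 40 genes. At least 1 match lay in a promoter of 5 of these 31 genes (16.1%), against 6.27% of 27025 genes with promoters in the same table. The 5 were Adora1, higher in excitatory nuclei, Hrh3 and Htr7, higher in inhibitory nuclei, and Adora2b and Hrh1, which were not called. Promoters were held for only 3 of the 5 genes called toward excitatory nuclei and 8 of the 11 called toward inhibitory nuclei. Matches were found in 1 of those 3 and 2 of those 8, too few to compare the directions. The letters are rich in G and C, and the promoters of the 31 genes, with the richest taken for each gene, had a median GC content of 61.3%, against 53.3% for all 27025 genes treated the same way. The cyclic AMP response element TGACGTCA, a target of cyclic AMP signalling and also searched on both strands, was in 0 of 31, against 2.03% of genes. A match is a description of letters and no evidence of binding.

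The promoters of the 3 called genes that hold a match are shown on the strand of the gene and 5′ to 3′, with letters that match on either strand in capitals. In Adora1 (chr1:134235408-134235707, minus strand) 2 overlapping matches begin 24 bases before the start. In Hrh3 (chr2:180104358-180104657, minus strand) the match begins 131 bases before it, and in Htr7 (chr19:36057311-36057610, minus strand) 95 bases before it.
Adora1: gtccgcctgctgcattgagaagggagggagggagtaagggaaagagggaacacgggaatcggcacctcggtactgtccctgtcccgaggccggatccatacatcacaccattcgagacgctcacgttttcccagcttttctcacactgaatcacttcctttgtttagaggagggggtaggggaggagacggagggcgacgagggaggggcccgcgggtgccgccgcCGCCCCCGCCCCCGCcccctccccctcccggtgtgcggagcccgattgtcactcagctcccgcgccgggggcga
Hrh3: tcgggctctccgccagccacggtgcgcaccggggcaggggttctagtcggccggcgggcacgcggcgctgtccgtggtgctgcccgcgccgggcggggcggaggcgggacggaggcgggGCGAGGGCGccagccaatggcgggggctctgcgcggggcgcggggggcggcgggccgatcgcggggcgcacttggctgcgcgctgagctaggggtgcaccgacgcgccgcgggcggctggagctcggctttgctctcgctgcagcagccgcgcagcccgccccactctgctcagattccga
Htr7: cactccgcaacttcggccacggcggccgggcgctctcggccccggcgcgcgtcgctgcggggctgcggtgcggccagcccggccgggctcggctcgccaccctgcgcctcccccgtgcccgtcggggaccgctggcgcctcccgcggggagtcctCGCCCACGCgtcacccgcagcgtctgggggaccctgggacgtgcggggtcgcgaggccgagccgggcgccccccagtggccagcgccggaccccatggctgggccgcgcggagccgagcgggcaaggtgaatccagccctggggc

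The genes around the receptors were also examined. Of 26 genes for making, moving or breaking down the ligands, 22 were tested, 11 were higher in inhibitory nuclei, against 6.62% of all tested genes, and 0 in excitatory nuclei, against 5.43%, which for a list of this size is near the background. The median log2 fold change was -0.91. This list too was chosen with earlier results of these data known. Slc29a1, the equilibrative transporter that moves adenosine, stood at 20.9 and 26.7 TPM in excitatory libraries, against 61.8 and 55.6 TPM in inhibitory libraries (log2 fold change -1.28 ± 0.16, adjusted p = 0.00698). The dopamine transporter gene Slc6a3 (-2.38), the choline transporter gene Slc5a7 (-2.31) and the choline acetyltransferase gene Chat (-2.06) had the other smallest p-values. These last 3, with Slc6a4 and Slc18a3, lay below 1 TPM in each excitatory library and entered the test only through inhibitory ones. Toward excitatory nuclei, Ada, adenosine deaminase, had an unadjusted p under 0.05 without passing the test.

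Of 31 genes for G proteins, effectors and receptor regulators, all were tested, 5 were higher in excitatory nuclei (5.43% of all tested genes were) and 6 in inhibitory nuclei (6.62% were), with a median log2 fold change of 0.06. Toward excitatory nuclei these included the adenylyl cyclase genes Adcy2, at 105 and 111 TPM in excitatory libraries against 46.4 and 40.6 TPM in inhibitory libraries (1.29 ± 0.12, adjusted p = 0.00324), and Adcy9 (0.94). Kcnj6 and Kcnj9, subunits of the potassium channel that Gi-coupled receptors open, were also higher there. Kcnj6 stood at 117 and 137 TPM in excitatory libraries against 39.2 and 49.5 TPM in inhibitory libraries (1.50 ± 0.15, adjusted p = 0.00428). Toward inhibitory nuclei, Gnal, the Golf alpha subunit through which Drd1 and Adora2a signal in the striatum, stood at 75.2 and 72.2 TPM in excitatory libraries against 185 and 184 TPM in inhibitory libraries (-1.31 ± 0.09, adjusted p = 0.00212). Adcy5, the main striatal adenylyl cyclase (-1.84), and Ppp1r1b, the DARPP-32 phosphatase inhibitor of dopamine signalling (-1.41), were higher there too. Plcb4, a phospholipase C acting below Gq, stood at 80.4 and 84.9 TPM in excitatory libraries against 165 and 167 TPM in inhibitory libraries and was called as well. Adcy5 and Ppp1r1b are also among the 10 striatal markers above.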

How the data were processed

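The deposited table holds TPM for 55487 genes in 2 excitatory and 2 inhibitory libraries, made by the authors. The submitters' processing notes name StringTie 2.2.1, Bowtie2 2.3.5, HISAT2 2.2.1 and fastp 0.23.4, and the mm10 build, without saying what each did. Per the labels' protocols the libraries were made from ribosomal RNA-depleted total RNA of sorted nuclei with a directional kit. TPM keeps no depth, so no counting interval is given. Replicate libraries correlated at r = 0.967 (excitatory) and 0.968 (inhibitory) across genes, against 0.916 to 0.923 between groups.

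The test took genes reaching 1 TPM in 2 or more libraries. They were compared on log2(TPM + 1), excitatory minus inhibitory, with limma 3.58.1 (R 4.3.3, trended variance prior, 2 residual degrees of freedom) and Benjamini-Hochberg adjustment over 26055 genes, at a threshold of 0.05. A fold change on this scale understates the change of low genes. The fit was tested on simulated data. Gene positions came from GENCODE M21, to which 55227 gene IDs and all 40 receptor genes matched. Full statistics were given for called receptor genes and the 6 with the highest mean TPM, and of the ligand handling and transducer lists up to 4 called genes per direction with the smallest p were named. The members and lists were chosen with earlier results of these data known. No gene of the astrocyte (8), oligodendrocyte (6) or tested endothelial and mural (3) marker lists was called. Alternatives were other pseudocounts, filters, scalings and variance priors, a replicate block and leaving out each library.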

Additional observations from a re-analysis of the deposited data

How the results depend on the processing

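Of the 16 called receptor genes, 15 kept their call under each of 8 other settings with all 4 libraries that tested them, and Hrh3 lost it without a trend in the variance prior. A filter of at least 5 TPM left Adra2b, Drd3 and Htr3a untested. With a pseudocount of 0.1 their log2 fold changes were -3.98, -2.44 and -2.52. Without the filter on low values, 0 receptor genes were called in either direction, and 47 and 93 of all genes toward excitatory and inhibitory nuclei, with 0.694 prior degrees of freedom against 4.04. Leaving out each library in turn, these counts were 0 at the lowest and 0 at the highest for receptor genes and for all genes in both directions, with 1 residual degree of freedom, the lone library being assumed to vary like the other group.

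Uncalled genes near 0 changed sign. With median ratio scaling the log2 fold change was 0.0328 for Adra1b, 0.0261 for Hrh2 and 0.0056 for Adora2b, and with quantile normalization 0.0739 for Adra1b, 0.0236 for Hrh2 and 0.0715 for Adora2b. Leaving out 1 library gave -0.17 to 0.44 for Htr2b, -0.17 to 0.86 for Htr5b, -0.0539 to 0.50 for Htr6, -0.14 to 0.0777 for Adra1b, -0.16 to 0.0726 for Hrh2 and -0.23 to 0.14 for Adora2b. The causes were not tested.

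The labels give both groups replicates 1 and 2. No pairing is stated, and the main fit used none. Same-numbered libraries deviated together only weakly (correlation 0.0957 across genes), which cannot exclude a pairing. From replicate 1 to 2, oligodendrocyte marker sums went from 430 to 356 TPM (excitatory) and from 379 to 270 TPM (inhibitory). Thalamic marker sums moved in opposite ways, from 92.3 to 79.0 TPM and from 214 to 297 TPM. Whether the replicates are paired was not tested. With the replicate number as a block, 6 receptor genes (Hrh1 added) were higher in excitatory and 14 (Htr1d, Chrm2 and Chrm5 added) in inhibitory nuclei. Of all genes, 1946 and 2382 were, against 1414 and 1725 without the block.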
